A study of Mus musculus with 2 samples.

Results

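Cluster 8 was the main retinal ganglion cell (RGC) cluster of the control retina. Its members were all nuclei that the deposited cell tables annotated as RGCs and placed in cluster 8. There were 423 of them among 14123 nuclei and 1271 RGC nuclei, with 394 in the Cre- library and 29 in the Tet tcKO library. RGCs are the projection neurons of the eye, and their axons form the optic nerve. They take input from bipolar and amacrine cells, fire action potentials and release glutamate onto targets in the brain. Mouse RGCs are known to fall into many subtypes that differ in transcription factors, and they share the RNA-binding proteins Rbpms and Rbpms2, POU4F transcription factors and abundant neurofilaments.

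The nuclei came from whole retinas of C57 BL/6J mice, taken at postnatal day 21 and sequenced by single-nucleus RNA-seq with a particle-templated kit. Tet tcKO animals carried floxed Tet1, Tet2 and Tet3, the enzymes that oxidise methylated cytosine, together with a Chx10-Cre-GFP transgene, whose promoter is active in retinal progenitors. That transgene is known to be mosaic, and the study bred Cre carriers to each other so that offspring held 2 functional copies. Cre- animals were age-matched, came from breeders without the transgene and are labelled WT. Each genotype was 1 library that mixed nuclei of 2 dissociation pools, and no pool is given for a nucleus. A genotype was thus represented by a single library, which allows no test, and levels are given with 95% intervals that cover counting error only.

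In the Cre- library cluster 8 held 69.5% (65.5 to 73.3) of the 567 RGC nuclei and 5.36% of all 7357 nuclei. In the Tet tcKO library it held 4.12% (2.78 to 5.86) of 704 RGC nuclei. The other Cre- RGC nuclei were in cluster 2 (111), cluster 31 (58) and cluster 15 (4). Cluster 8 nuclei were shallow. They had a median of 1306 UMIs (546 to 8942) in Cre-, close to the 1337.5 of cluster 31 and below the 4092 of cluster 2. The libraries shared 1 barcode, and no cluster 8 nucleus carried it. Of the Cre- cluster 8 UMIs, 2.48% came from the 13 mitochondrial genes, against 1.45% in cluster 2 and 1.83% in cluster 31.

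**Figure D1:**
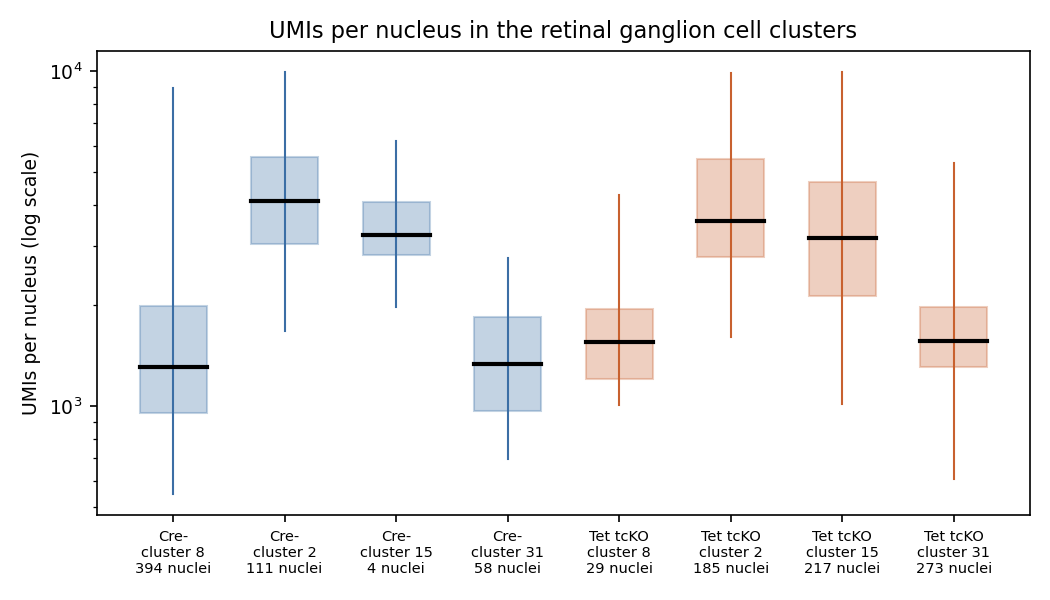
UMIs per nucleus (log axis) in the 4 RGC clusters of each library. Boxes span the middle 50% of nuclei, black bars are medians and lines reach the lowest and highest nucleus. Cluster 8 and cluster 31 had low medians in both libraries, and cluster 2 had high ones.

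To check the annotation, 5 marker genes were compared between cluster 8 and the 6790 non-RGC nuclei of the Cre- library. All 5 were higher in cluster 8. UMIs were summed over nuclei and given as CPM, counts scaled to a common library total of 1000000. Coro6, an actin-binding coronin, stood at 217 CPM in cluster 8 and 18.6 CPM in non-RGC nuclei. Ahnak2, a large scaffold protein, stood at 102 and 11.1 CPM. Rbpms2 stood at 180 and 19.3 CPM. These 3 genes had log2 ratios of 3.55 (3.22 to 3.87), 3.21 (2.75 to 3.66) and 3.22 (2.88 to 3.56). The medium neurofilament Nefm was at 236 against 48.8 CPM, and the receptor tyrosine kinase Flt3 at 109 against 11.4 CPM. Across all genes compared, 7.93% were at least 2-fold higher in cluster 8 than in non-RGC nuclei and 14.7% at least 2-fold lower. Of 14 general RGC markers that could be compared, 11 were 2-fold higher and 0 were 2-fold lower, with a median log2 ratio of 1.97. A gene was compared where it reached 20 CPM in either population and an expected count of 5 in the smaller. Since the clusters were made from these counts, the differences describe the annotation and are not tests of it.

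**Figure D2:**
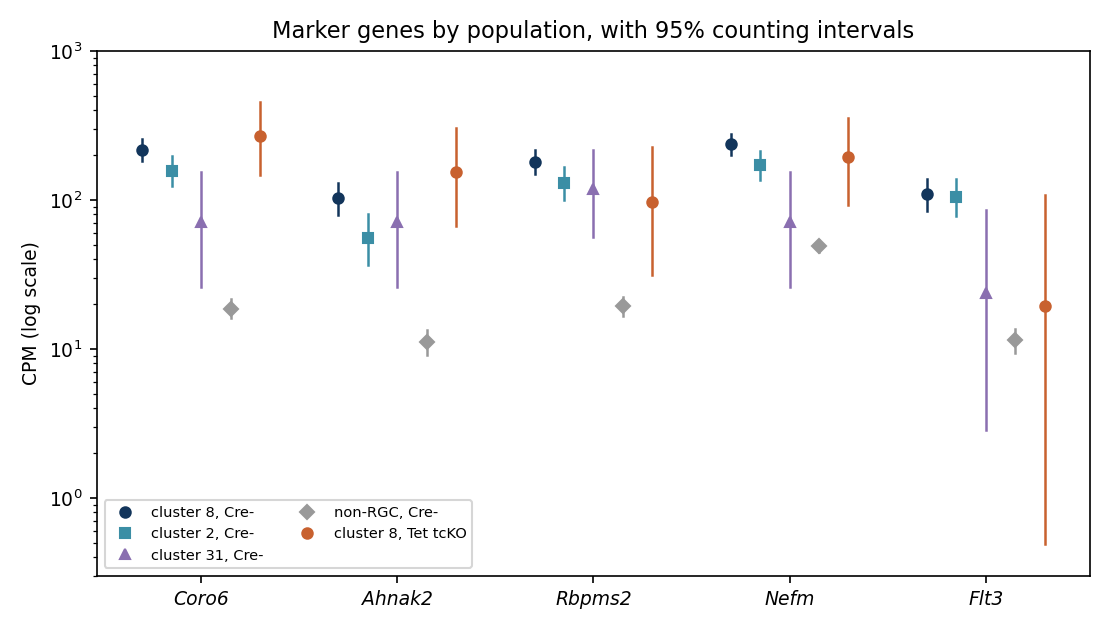
CPM (log axis) of the 5 marker genes in 5 populations, with points for levels and lines for 95% counting intervals. Cluster 8 of the Cre- library lies above non-RGC nuclei for each gene and close to or above cluster 2. The Tet tcKO points rest on 1 to 14 UMIs.

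The single genes that set cluster 8 furthest above non-RGC nuclei were led by 6330411D24Rik, at 693 against 47.4 CPM (log2 ratio 3.87, 3.68 to 4.06). Srgap1, a GTPase-activating protein of the Slit-Robo pathway, was at 957 against 83.8 CPM and was detected in 282 of the 394 nuclei. Tmem163, a zinc transporter, was at 268 against 22.8 CPM. Rbpms, the standard RGC label, was at 701 against 74.3 CPM and was detected in 247 nuclei. Cntn2, an axonal adhesion molecule, Clvs2, Ccdc192, Stk32a and Pakap completed the list of the 12 highest ratios together with Coro6, Flt3 and Rbpms2. The lowest were genes such as Alpl at 14.0 against 101 CPM and Sntb1 at 9.31 against 74.3 CPM.

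Upstream sequence was examined for the 5 markers and the 12 leading genes, 14 genes in all after overlap. The RefSeq promoter table held 9 of them. Shown are the 250 bases before the annotated start of Coro6 (chr11:77462330-77462579, plus strand) and of Rbpms2 (chr9:65630332-65630581, plus strand) on GRCm38.p6, because TET enzymes act on cytosines in CG pairs, which are printed in capitals.
Coro6: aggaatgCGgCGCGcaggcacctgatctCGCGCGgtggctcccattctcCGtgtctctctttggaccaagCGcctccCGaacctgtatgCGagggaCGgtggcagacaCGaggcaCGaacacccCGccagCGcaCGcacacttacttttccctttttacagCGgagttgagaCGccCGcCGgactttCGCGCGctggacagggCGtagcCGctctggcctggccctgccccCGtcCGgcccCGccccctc
Rbpms2: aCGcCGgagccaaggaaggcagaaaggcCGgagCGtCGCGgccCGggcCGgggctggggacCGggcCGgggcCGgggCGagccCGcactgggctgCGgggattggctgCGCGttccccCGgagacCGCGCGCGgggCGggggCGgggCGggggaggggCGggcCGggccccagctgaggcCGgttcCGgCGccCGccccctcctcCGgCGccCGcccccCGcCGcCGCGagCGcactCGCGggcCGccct
The Coro6 window held 28 CG pairs and the Rbpms2 window 41, against a median of 6 over 32851 promoters. They were among the richest of the 14 windows. A second annotated start of Coro6 had 4, Ahnak2 10, Flt3 13, Tmem163 8, Cntn2 10, Clvs2 5 and Srgap1 35, and the Pakap starts had 3 to 33. Methylation was not measured in these libraries. On either strand, none of the 14 windows of the 9 genes held ATNANTAAT, a form of the POU4F motif, or the palindromic EBF motif. Among all promoters 2.82% and 0.779% held them.

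Within the Cre- library cluster 8 was then set against the other 173 RGC nuclei pooled. Of their 585545 UMIs, cluster 2 gave 486078, so this comparison was largely one with cluster 2. Of 8104 genes compared, 701 (8.65%) were at least 2-fold higher in cluster 8 and 359 (4.43%) at least 2-fold lower. The median over all genes was a log2 ratio of 0.10. Scaling by TMM moved that median to -0.03 and the split to 507 higher and 515 lower, and scaling by the median of ratios gave 545 and 478, so the excess of higher genes rested on scaling by total counts. None of the 5 markers reached 2-fold, and their log2 ratios lay between 0.26 and 0.86. After thinning to 500 UMIs their median was 1.10, and Ahnak2 alone stayed under 2-fold. Their summed level was 844 CPM in cluster 8, 617 CPM in cluster 2 and 354 CPM in cluster 31. By summed UMIs the markers were thus closer to cluster 2. Of the 5, 3 were 2-fold above cluster 31, against 9.98% of all genes compared with that cluster. In cluster 31, Coro6 was at 70.7 CPM, Nefm at 70.7 CPM and Flt3 at 23.6 CPM, from 6, 6 and 2 UMIs.

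General RGC genes were split. Rbpms was at 701 CPM in cluster 8, 1208 CPM in cluster 2 and 1096 CPM in cluster 31. Ebf1, a transcription factor of RGC development, was at 859, 1559 and 1273 CPM in the same order. Both were thus lower in cluster 8 than in either neighbour, though neither by 2-fold. The neurofilament genes went the other way against cluster 2. Shorter genes in general were also higher in cluster 8, as given below. Nefm stood at 236 against 171 CPM, Nefl at 178 against 92.6 CPM and Nefh at 77.6 against 53.5 CPM. In cluster 31, Nefm was at 70.7 CPM and Nefh at 23.6 CPM, while Nefl was at 236 CPM. The POU4F factor Pou4f2 had 14 UMIs in cluster 8 and 5 in the other RGC nuclei (log2 ratio 1.35). Over the 15 general markers compared, the median log2 ratio was -0.02. The summed level was 3091 against 4017 CPM (log2 ratio -0.38, -0.46 to -0.29), and Rbpms and Ebf1 carried that gap.

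The genes with the highest ratios over other RGC nuclei were of low level. Col27a1, a fibrillar collagen, led with 72 UMIs in 38 cluster 8 nuclei against 10 UMIs in 9 other RGC nuclei (112 against 17.1 CPM, log2 ratio 2.71, 1.75 to 3.83). It was also present outside RGCs, at 189 CPM in non-RGC nuclei. Neurl1a, an E3 ubiquitin ligase, had 46 against 10 UMIs, and Ptprz1, a receptor phosphatase of glia, 38 against 9. Ctsf, a lysosomal protease, was at 101 against 29.0 CPM and Rps29, a ribosomal protein, at 93.1 against 29.0 CPM. Chmp2a, Fam50a, Ccdc84, Zfp810, Tafa3, Knop1 and B230307C23Rik made up the rest of the 12 highest, with log2 ratios of 1.70 to 1.95. Among the lowest, Dcx, a microtubule protein of migrating and young neurons, had 7 UMIs in cluster 8 and 37 in the others (10.9 against 63.2 CPM, log2 ratio -2.54, -3.95 to -1.36). Plppr5 and Gprin3, proteins linked to neurite outgrowth, were at 10.9 against 52.9 CPM and 14.0 against 56.4 CPM. Iqsec2, a synaptic exchange factor, was at 17.1 against 66.6 CPM. Parm1, Tbc1d1, Susd6 and C030017B01Rik were the other 4.

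Against cluster 2 alone, 10.1% of genes were 2-fold higher and 5.02% 2-fold lower, and the axon guidance list gave 0 and 3 of 22. Of the 12 highest and 8 lowest genes, 9 and 7 were also on the list against cluster 2. The list against cluster 31 shared none of them, but with so few UMIs in cluster 31 genes as scarce as Dcx or Gprin3 could not enter it. Against cluster 31, 9.98% of 3428 genes were 2-fold higher and 3.38% 2-fold lower, where 7.28% of unchanged genes in simulated counts passed 2-fold. The highest there, such as Hdlbp and Abca7, rested on 1 UMI in cluster 31. The lowest were better counted. Gabrb2, a GABA-A receptor subunit, was at 52.7 CPM in cluster 8 and 224 CPM in cluster 31, and the kainate receptor gene Grik4 at 46.5 against 153 CPM. The noncoding transcript D130079A08Rik was at 183 against 613 CPM.

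The ratios followed the length of the gene in the genome. Genes compared were put into 4 equal groups by the span of their GENCODE annotation on GRCm39, introns included. Against other RGC nuclei, the shortest group (median span 11.0 kb) stood at a median log2 ratio of 0.45 and the next groups at 0.19 and 0.01. The longest group (median span 185 kb) had -0.21. Of the shortest genes 17.3% were 2-fold higher and 2.68% 2-fold lower, against 3.52% and 6.05% of the longest. Cluster 8 therefore carried relatively more transcripts of short genes and fewer of long genes than the other RGC clusters.

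The same order was present against each other RGC cluster compared, the 4 Cre- nuclei of cluster 15 being too few. Against cluster 2 the medians ran from 0.48 to -0.21, and against cluster 31, whose nuclei were as shallow, from 0.35 to -0.22. In the Tet tcKO library, where the 29 members were compared with 185, 217 and 273 nuclei, they ran from 0.34 to -0.47 against cluster 2, from 0.41 to -0.57 against cluster 15 and from 0.13 to -0.23 against cluster 31. Against Cre- amacrine nuclei there was no such order, at -0.05 for short and -0.09 for long genes, whereas against Tet tcKO amacrine nuclei it ran from 0.12 to -0.49. Against the Cre- non-RGC nuclei as a whole the order was the opposite, at -0.43 and 0.13. Within cluster 8, nuclei under 1000 UMIs set against nuclei of 2000 UMIs or more gave 0.08 and -0.16, a smaller step than that between clusters. The difference between longest and shortest group against other RGC nuclei was -0.66, and was -0.49 in nuclei of 1700 to 4000 UMIs and -0.27 when a gene was scored at most once in a nucleus. Under that last setting the groups ran 0.13, -0.08, -0.19 and -0.14, so the longest group was no longer the lowest. Against cluster 31 alone, whose depth was like that of cluster 8, the same setting gave 0.28, 0.17, -0.08 and -0.22. There the longest group stayed the lowest. The mitochondrial share above moved in the same direction between these clusters, and its part in the order was not tested.

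**Figure D3:**
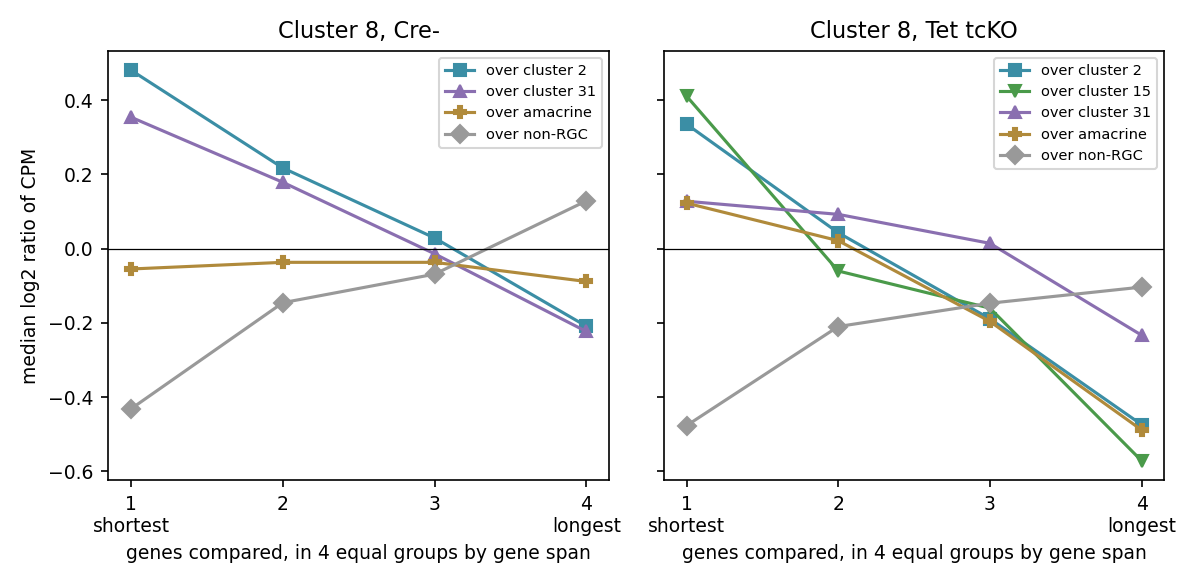
Median log2 ratio of CPM (vertical axis) between cluster 8 and other populations for genes in 4 equal groups of gene span, shortest to longest. Against each other RGC cluster the line falls in both libraries. Against amacrine nuclei it is nearly flat in Cre- and falls in Tet tcKO, and against non-RGC nuclei it rises.

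Genes of axon guidance were lower in cluster 8 by summed UMIs. Of 22 compared, 0 were 2-fold higher and 3 were 2-fold lower, where 8.65% and 4.43% of all genes were, with a median log2 ratio of -0.53 against 0.10 for all genes. The receptor Robo2 was at 428 CPM in cluster 8, 883 CPM in cluster 2 and 719 CPM in cluster 31. The ligand Sema3a was at 97.7, 249 and 94.3 CPM, and the netrin receptor Unc5d at 216, 459 and 330 CPM. Sema3a thus differed from cluster 2 and not from cluster 31. The netrin receptor Dcc, at 949, 1479 and 1297 CPM, was intermediate in size of change. The adhesion molecules L1cam (133 against 99.1 CPM in other RGC nuclei) and Cntn2 (66.7 against 58.1 CPM) were not lower. These are long genes, and 19 of the 22 were in the longest group. Relative to the median of genes in the same span group, the list's median was -0.32. Against cluster 31 the median over 18 genes was -0.36 and 0 were 2-fold lower, with a summed level of 4875 against 6495 CPM. Against the other RGC nuclei pooled, with a gene scored at most once in a nucleus, the list's median was -0.11. This was next to -0.08 for all genes and -0.14 for the longest group, so the list was then no lower than other long genes.

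Receptors for inhibitory transmitters gave a similar picture. Of 17 GABA and glycine receptor genes, 5 were 2-fold lower and 0 were 2-fold higher, against 4.43% and 8.65% of all genes, with a median of -0.48, or -0.27 relative to genes of like span. Gabrb1 was at 115 against 254 CPM in other RGC nuclei and Gabrb2 at 52.7 against 128 CPM. The GABA-B receptor Gabbr1, at 135 against 97.3 CPM, and the glycine receptor Glra1, at 107 against 73.4 CPM, lay above. Against cluster 31 the list was split, with a median of 0.18 over 9 genes, 2 of them 2-fold lower, and a summed log2 ratio of -0.24 (-0.45 to -0.02). Glutamate receptors had a median of -0.17, with 0 of 18 2-fold higher and 1 2-fold lower.

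Other excitability gene lists had medians near 0. Sodium channels had a median of -0.02, potassium and HCN channels -0.02 and calcium channels 0.08. The summed potassium channel level was nonetheless 10605 against 14004 CPM, because the channel-interacting gene Kcnip4 alone was at 5365 against 8249 CPM. Calcium channels summed to 4314 against 4614 CPM, opposite in sign to their median. Single channel genes moved both ways, with log2 ratios of -1.14 for Scn4b, 1.21 for Kcnip2 and 1.25 for Cacna1i. Axon cytoskeleton genes had a median of 0.24, or 0.15 relative to genes of like span, and none of the 12 reached 2-fold. The log2 ratios of Nefl, Nefm and Nefh over other RGC nuclei were 0.62, 0.62 and 0.70. Relative to genes of like span they were 0.17, 0.43 and 0.25. Map1b was at 924 against 728 CPM, Mapt at 772 against 700.2 CPM and Sptbn4, a spectrin of the axon initial segment, at 276 against 195 CPM. In contrast, Stmn2 and Gap43, growth-associated proteins of axons, were at 93.1 against 155 CPM and 68.3 against 92.2 CPM. Of the immediate early genes, Nr4a1 was found in 43 nuclei (72.9 against 61.5 CPM in other RGC nuclei), while Fosb, Junb and Arc had 0 UMIs. Of the injury response genes, Atf3, Chac1, Ecel1, Gal and Hrk had 0 UMIs in cluster 8, where 3 counts would be 4.65 CPM. The other injury genes listed (Sox11, Sprr1a, Ddit3, Jun, Gadd45a and Bbc3) and immediate early genes listed (Fos, Egr1 and Npas4) are not given. Neither list is thus described as a whole.

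The Tet tcKO library gave the contrast a further set of nuclei. There the axon guidance list summed to 0.63 below the other RGC clusters on the log2 scale (-0.63, -0.81 to -0.45), next to -0.58 (-0.65 to -0.52) in Cre-. Of its 17 genes compared, 0 were 2-fold higher and 5 were 2-fold lower, where 3.94% and 11.7% of all genes were. The GABA and glycine receptor list was at -0.28 and -0.42, and the 5 markers were at 0.71 and 0.56. General RGC markers were lower in Cre- cluster 8 (-0.38) and level in Tet tcKO (0.04, -0.18 to 0.25). Axon guidance genes are mostly long, and the longest span group had a median log2 ratio of -0.47 in the Tet tcKO contrast. The other RGC nuclei were also a different mix in Tet tcKO. Clusters 2, 15 and 31 gave 804092, 810359 and 466601 UMIs there, whereas cluster 2 gave most in Cre-.

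**Figure D4:**
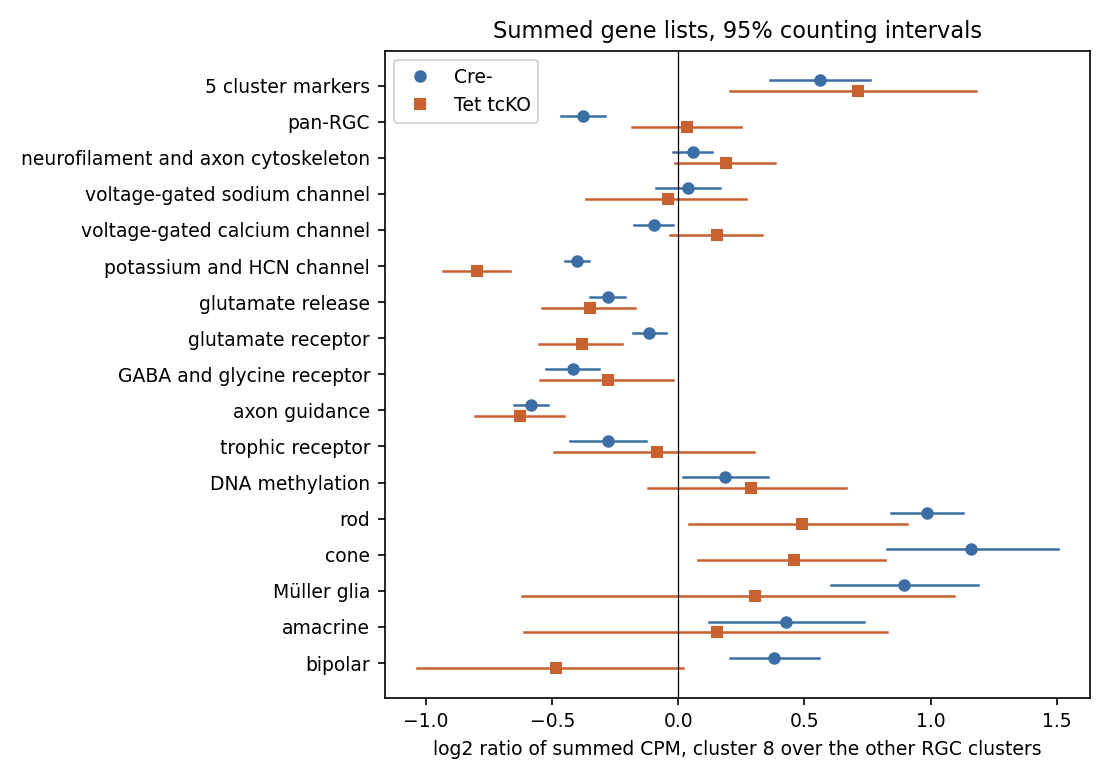
Log2 ratio of summed CPM of each gene list (horizontal axis) for cluster 8 over the other RGC clusters, within the Cre- library (circles) and the Tet tcKO library (squares), with lines for 95% counting intervals. Axon guidance and inhibitory receptor lists lie below 0 in both libraries, and rod and cone lists above 0.

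Marker genes of other retinal cell types also differed. All 8 rod genes were higher in cluster 8 than in other RGC nuclei, 3 of them by 2-fold, with a median log2 ratio of 0.95. Among all genes compared, 56.2% were higher and 8.65% were 2-fold higher. Relative to genes of like span, the rod list stood at 0.73, and 1 of the 8 was 2-fold above such genes. The rod genes summed to 1989 CPM in cluster 8, 950.5 CPM in cluster 2 and 1297 CPM in cluster 31, against 7676 CPM in non-RGC nuclei. Sag, rod arrestin, was at 599, 329 and 389 CPM in the 3 RGC clusters, and Pde6b, a rod phosphodiesterase subunit, at 319.5, 111 and 130 CPM. Cone genes summed to 397, 146 and 354 CPM. Müller glia genes summed to 467, 239 and 318 CPM. Cluster 8 thus lay above cluster 2 in each list, while its gap to cluster 31 was within counting error for cone and Müller genes.

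Each rod gene in cluster 8 stood at 18.3% to 26.5% of its level in nuclei annotated as rods or cones (median 21.6%). Amacrine nuclei, which are not photoreceptors, had 19.2% to 25.8%, and cluster 2 had 6.76% to 13.2%. Cluster 31, as shallow as cluster 8, had 7.89% to 25.1% (median 16.7%) over the 4 genes that could be compared. After thinning to 500 UMIs, 62.7% of cluster 8 nuclei had a UMI of a rod gene, against 59.6% of amacrine and 36.9% of cluster 2 nuclei. Defining markers of astrocytes (Gfap), microglia (C1qa, C1qb, Csf1r), endothelium (Cldn5), oligodendrocytes (Mog) and pigment epithelium (Best1) were at 0 UMIs. The origin of the rod, cone and Müller glia transcripts in cluster 8 was not tested, nor was their part in the other differences.

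**Figure D5:**
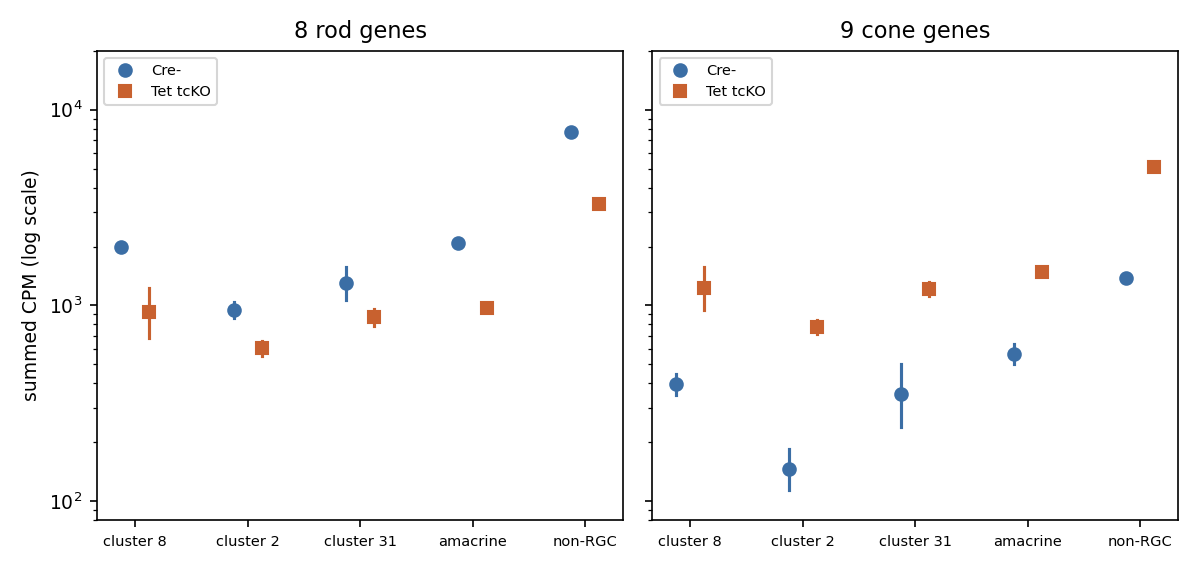
Summed CPM (log axis) of 8 rod genes and 9 cone genes in RGC clusters, amacrine nuclei and all non-RGC nuclei of both libraries, with lines for 95% counting intervals. Cluster 8 matches amacrine nuclei for rod genes in each library, and cluster 2 lies lower.

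Among the members, the level of RGC markers did not follow depth. In nuclei under 1000 UMIs, of 1000 to under 2000 and of 2000 or more (118, 179 and 97 nuclei), general RGC markers summed to 3087, 2989 and 3180 CPM. Rod genes summed to 2599, 1920 and 1843 CPM. Cluster 2 nuclei of 2000 UMIs or more, which were deeper on average within that class, had 4056 CPM of RGC markers and 953 CPM of rod genes. After thinning, 79.7% (75.4 to 83.6) of cluster 8 nuclei had at least 1 general RGC marker, close to the 82.0% of cluster 2 and 86.2% of cluster 31. Amacrine nuclei gave 23.8% and rods and cones 41.9%, which is the level in cell types other than RGCs. Rbpms alone was seen in 30.2% of thinned cluster 8 nuclei and 1.49% of thinned amacrine nuclei.

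Markers of RGC subtypes were sparse in cluster 8. After thinning, 35.0% of nuclei had a UMI of any subtype marker, and unthinned 64.5%. Low levels were not particular to cluster 8. In Cre- clusters 8, 2 and 31, Spp1 was at 27.9, 20.6 and 23.6 CPM and Eomes at 9.31, 10.3 and 11.8 CPM. Foxp2 was at 38.8, 32.9 and 130 CPM. The cluster 31 values rest on 2, 1 and 11 UMIs. Spp1, a marker of alpha RGCs, was found in 14 of the 394 nuclei before thinning and in 1.52% (0.561 to 3.28) after it, against 0 of 403 thinned amacrine nuclei. Opn4, melanopsin of intrinsically photosensitive RGCs, was found in 3 nuclei, and their factor Eomes in 6. Foxp2 was found in 24 nuclei and Tbr1 in 6. After thinning, the share for Foxp2 was 1.78% (0.717 to 3.63), with 0 in amacrine nuclei and 1.11% in rods and cones, and that for Eomes was 0.254% in cluster 8 and 0.248% in amacrine nuclei. Thinned shares of Foxp1 (12.2%), Cartpt (1.52%), Fstl4 (8.12%) and Col25a1 (2.54%) were no higher than in amacrine nuclei (13.2%, 3.97%, 9.93% and 10.9%), so these genes did not set cluster 8 apart from amacrine nuclei. By these thinned shares Foxp2 and Eomes could not be told from the level in other cell types. By summed UMIs, Foxp2 was at 38.8 CPM (25.1 to 57.2), above amacrine nuclei (8.95, 2.91 to 20.9). Its interval overlapped that of non-RGC nuclei (23.3, 20.5 to 26.5). Eomes, at 9.31 CPM (3.42 to 20.3), lay above non-RGC nuclei (2.04, 1.26 to 3.12) and overlapped amacrine nuclei (5.37, 1.11 to 15.7). Among direction-selective markers, Cdh6 was lower in cluster 8 (72.9 CPM) than in cluster 2 (212 CPM) and above cluster 31 (35.4 CPM). Jam2 and Tbr1 together were at 58.9 CPM against 153 CPM in cluster 31, where they had 13 UMIs.

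Some genes were held by few of the members. For 2102 genes with 60 UMIs or more, the number of Cre- cluster 8 nuclei with a UMI was compared with the number that depth alone would give, and the median of the observed to expected counts was 0.977. The most uneven gene was Il1rapl2, an interleukin-1 receptor accessory protein of synapses, with 189 UMIs in 59 nuclei where 141 were expected. The 10 nuclei with most UMIs held 61.4% of them. In cluster 2 it had 457 UMIs in 33 of 111 nuclei. Titin, Ttn, had 94 UMIs in 41 nuclei and reached 146 CPM, against 5.37 CPM in amacrine nuclei and 21.4 CPM in all non-RGC nuclei. Cluster 2 held Ttn too, at 92.6 CPM from 45 UMIs in 9 nuclei. Myh13, a muscle myosin that was also at 152 CPM in non-RGC nuclei, had 89 UMIs in 34 nuclei, and Col27a1 72 UMIs in 38. For Mylip and Ttc19 the unevenness came from a single nucleus, with 28 of 62 and 42 of 95 UMIs.

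The 29 Tet tcKO members kept RGC markers. They had 51883 UMIs in all (median 1554 per nucleus), so 3 counts, the floor set for a count of 0, are 57.8 CPM. General RGC markers summed to 3527 CPM against 3091 CPM in Cre- members (log2 ratio 0.19, -0.04 to 0.41). Rbpms was at 944 against 701 CPM. Coro6 had 14 UMIs, Nefm 10, Ahnak2 8, Rbpms2 5 and Flt3 1. After thinning, 75.9% (56.5 to 89.7) had a general RGC marker. Tet1, Tet2 and Tet3 had 3, 7 and 9 UMIs in these nuclei, at 57.8, 135 and 173 CPM against 40.3, 121 and 129 CPM in Cre- members. The counts cover whole genes, so whether these nuclei had recombined was not tested.

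Of 2020 genes compared between the genotypes in cluster 8, 34 (1.68%) were 2-fold higher in Tet tcKO and 139 (6.88%) 2-fold lower. With TMM scaling, which moved the median of all genes from -0.03 to -0.37, these counts were 7 and 288. In simulated counts at the same depths, 7.42% of unchanged genes passed 2-fold in either direction under scaling by total counts. Photoreceptor genes were prominent on both sides. Cngb3, a cone channel subunit, had 29 UMIs in 20 of 29 nuclei (559 against 86.9 CPM, log2 ratio 2.69, 1.99 to 3.36), and cone arrestin Arr3 22 UMIs (424 against 172 CPM). Cnga1, the rod channel, and Pde6g had 1 UMI each, against 120 and 106 in Cre- members (log2 ratios of -3.27, -8.59 to -0.77, and -3.09, -8.41 to -0.58). Rp1, Trpm1 and Samd11 had 0 UMIs, against 103, 88 and 87. Cone genes summed to 1234 against 397 CPM (1.64) and rod genes to 925 against 1989 CPM (-1.10). Non-RGC nuclei of the libraries differed the same way, by 1.87 and -1.21. RGC function lists moved little, with the axon guidance list at 0.07 (-0.11 to 0.25) and the GABA and glycine receptor list at 0.15 (-0.13 to 0.41). Among single genes, Map2k6, a MAP kinase kinase, was at 347 against 82.2 CPM, from 18 UMIs in 6 nuclei, and the zinc finger gene Zfp521 at 289 against 99.3 CPM. Ttn had 1 UMI against 94, and it was also lower in Tet tcKO in the other RGC clusters (23.5 against 83.7 CPM). Library and genotype cannot be told apart in these values.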

How the data were processed

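Nuclei of 2 libraries were profiled, 1 per genotype. Per the labels and the study's methods, the authors processed reads with pipseeker 3.3.0 against GRCm39, removed ambient RNA with CellBender 0.3.0 (cell probability 0.99), kept nuclei above 500 and below 10000 UMIs with under 20% mitochondrial transcripts, and clustered in Monocle3. The values deposited as matrices are UMI counts, whole numbers for each gene in each nucleus. The deposited cell tables give counts of genes and UMIs, a mitochondrial percent, a size factor ratio, a cell type and a cluster. The deposited gene table holds the authors' mean signal per library and a count of nuclei, and was not used for any level.

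Here UMIs were summed over nuclei, scaled to CPM and compared as log2 ratios with exact conditional binomial 95% intervals. Levels have exact Poisson intervals and shares Clopper-Pearson intervals. A count of 0 was set to 3 counts, and no ratio was given where both populations had 3 or fewer. A gene entered where it reached 20 CPM in either population and an expected count of 5 in the smaller. A 2-fold difference was the threshold. Named genes were the 12 highest and 8 lowest ratios among genes of at least 50 CPM found in at least 5% of nuclei and 5 nuclei, plus members of the gene lists. A gene at 0 ranks behind a gene with 1 UMI because of the floor. Members and lists were chosen with earlier results of these data known. Genes singled out for uneven spread, and the span groups, were chosen after values were seen. Shares of nuclei with a UMI were taken after thinning each nucleus to 500 UMIs. Doublets were not removed. A simulated-doublet score (2000 variable genes, 30 components, 30 neighbours) placed 6 of the 394 Cre- members and 1 of the 29 Tet tcKO members in the top 10% of their library. The ratio step was tested on simulated data with 200 changed genes, drawn as Poisson counts of each population's sum. The intervals assume such counts, so their coverage there does not bear on uneven spread between nuclei. For cluster 8 against other RGC nuclei (8104 genes), 96.1% of intervals held the true value, 97% of 4-fold and 100% of 8-fold changes were recovered, and 3.49% of unchanged genes passed 2-fold. That last share was 7.28% against cluster 31 and 7.42% between the genotypes in cluster 8. Alternatives were thinning, each gene once per nucleus, TMM and median-of-ratios scaling, other filters, depth limits, doublet removal and other comparators. Gene spans were matched for 99.6% of genes compared. Python 3.11.15, numpy 2.4.6, scipy 1.17.1, pandas 2.3.3, scikit-learn 1.9.0 and matplotlib 3.10.9 were used.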

Additional observations from a re-analysis of the deposited data

Results flagged for a closer look

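For 416 gene list sums and genes, the difference between cluster 8 and the other RGC clusters could be set side by side in the Cre- and Tet tcKO libraries, and 2 genes moved in opposite directions with intervals on either side of 0. Map2k6, a MAP kinase kinase, was lower in Cre- cluster 8 (82.2 against 138 CPM, log2 ratio -0.75, -1.28 to -0.23) and higher in Tet tcKO cluster 8 (347 against 83.1 CPM, log2 ratio 2.06, 1.27 to 2.76). Its 18 Tet tcKO UMIs lay in 6 nuclei. Rhoj, a small GTPase, was at 54.3 against 92.2 CPM in Cre- (log2 ratio -0.76, -1.42 to -0.12) and at 116 against 33.6 CPM in Tet tcKO (log2 ratio 1.78, 0.29 to 2.98). Both genes had entered the set by their difference between the libraries, Map2k6 in cluster 8 and Rhoj in the other RGC clusters. The opposite signs thus reuse the counts that chose them. With 1 library per genotype neither difference was tested.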

How the results depend on the processing

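No paired analysis was possible because each genotype was 1 library. The 1700 to 4000 UMI limit and the gene span alternatives were chosen after seeing the data. Genes 2-fold apart between cluster 8 and other Cre- RGC nuclei (1060, with 701 higher and 359 lower) became 339 higher and 615 lower with each gene once per nucleus. The count was 604 (404 and 200) after thinning, 338 (214 and 124) at 50 CPM and an expected count of 10, 2533 (1620 and 913) with no minimum CPM and an expected count of 2, and 573 (431 and 142) without cluster 2 in the comparator. With each gene once per nucleus the median log2 ratio of rod genes was 0.54 and of axon guidance genes -0.11, and the span difference was -0.27. That of the 5 markers was 1.10 after thinning and 1.43 without cluster 2. Zfp810 turned to -0.19 after thinning.

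Genes 2-fold apart between Tet tcKO and Cre- cluster 8 (173, with 34 higher and 139 lower) became 114 (11 higher) with each gene once per nucleus, 34 (9 and 25) after thinning, 295 (7 and 288) with TMM and 292 (7 and 285) without the top nucleus of each gene. They were 38 (4 and 34) under the stricter filter, 953 (328 and 625) under the looser one and 90 (12 and 78) in nuclei of 1700 to 4000 UMIs. The share of Cre- RGC nuclei in cluster 8 was 63.7% among nuclei of 1000 UMIs or more and 61.8% among those of 1700 to 4000. The share with any subtype marker was 64.5% unthinned and 53.6% thinned to 1000 UMIs. The span difference against other Cre- RGC nuclei lay between -0.79 and -0.27 over its alternatives, with 1 sign. Causes of these shifts were not tested, except that filters change the number of genes compared. In the 29 Tet tcKO nuclei 3 counts are 57.8 CPM.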
